A study of Mus musculus with 4 samples.

Results

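The Slc25 family of mitochondrial carriers was followed in RNA sequencing of CD24+ cells from the livers of C57BL/6 mice. Its members were taken by name, as the table rows whose symbol starts with Slc25a and a number, and by a minimum of 10 raw counts in at least 2 of the 4 libraries. Of the 47 such rows among 21878, 42 were members. The symbols Slc25a2, Slc25a18, Slc25a31, Slc25a41 and Slc25a54 stayed below the minimum. Just inside it were Slc25a21, with 2 and 3 counts in HACY and 10 and 16 in CCL4, and Slc25a34, with 0 and 10 against 14 and 20. Just outside were Slc25a2, with 0 and 1 against 6 and 1, and Slc25a31, with 4 and 2 against 0 and 0. A library with 0 reads may still hold up to 3 counts of a gene by counting error alone, that is 0.148 to 0.170 CPM (counts scaled to library size).

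Cells had been collected on magnetic columns for the surface protein CD24, and the labels call them hepatocytes as well as liver progenitor cells. The CCL4 group (2 libraries) came from mice given carbon tetrachloride, a liver toxin, dissolved in olive oil (2 ml/kg, 2 injections each week over 6 weeks). The HACY group (2 libraries) came from mice given 3 injections each week over the same time of a cocktail of kinase inhibitors. They are Y-27632, which acts on ROCK, A-83-01, which acts on type I receptors of TGF-beta, and CHIR99021, which acts on glycogen synthase kinase 3. The labels give an age of 8 weeks at injection and, in another field, of 6 to 8 weeks, and do not make clear whether HACY mice also received carbon tetrachloride. There was no untreated group. Whether replicates were separate animals is not said, and the p-values rest on a spread between libraries that may be technical. Changes are given as HACY relative to CCL4.

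Carriers of this family sit mostly in the inner mitochondrial membrane and exchange solutes between cytosol and matrix, which that membrane otherwise keeps apart. They move ADP and ATP, phosphate, cofactors, amino acids, the acids of the citric acid cycle, acylcarnitines and iron. In hepatocytes they link the cytosolic and mitochondrial steps of the urea cycle, of gluconeogenesis, of fatty acid synthesis and of fatty acid oxidation.

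Libraries held 18467299 to 19314219 counts. Among all 13428 genes tested by edgeR's quasi-likelihood test, 1100 were higher and 476 lower at an adjusted p below 0.05. With scaling by library size alone, which moved the median log2 fold change of all genes from -0.01 to -0.18, a shift that applies to every value below, the split was 856 higher and 1355 lower. Cd24a, the gene of the sorted surface protein, had 21.9 and 19.4 CPM in HACY and 20.7 and 38.0 CPM in CCL4. Markers of hepatocytes and of other cells moved with the groups. Of 9 hepatocyte markers 8 were higher in HACY, and their summed level was 28450 to 35807 CPM in HACY and 6962 to 8460 CPM in CCL4. Of 9 macrophage markers 8 were higher (1770 to 2461 CPM against 731 to 1029 CPM), and of 6 endothelial markers 2 were higher and 1 lower (894 to 1175 CPM against 385 to 653 CPM), while DESeq2 called 4 higher and 0 lower. Cholangiocyte markers had 1 of 7 tested higher (2940 to 4228 CPM against 1154 to 2215 CPM), and Spp1, which macrophages also express, made up most of that sum. Neutrophil markers, with 1 of 8 tested lower, summed to 34.6 and 37.7 CPM in HACY, 32.2 CPM in CCL4 replicate 1 and 241 CPM in CCL4 replicate 2. The B cell markers summed to 23.1 to 29.3 CPM and the stellate markers to 303 to 610 CPM, and both sums overlapped between groups. The erythroid markers summed to 5.24 and 10.3 CPM in HACY and 2.48 and 3.75 CPM in CCL4. The T and NK cell markers summed to 2.13 and 2.16 CPM in HACY and 0.708 and 0.739 CPM in CCL4. Neither of these sums overlapped between groups. No gene of the 4 lists was called by edgeR. At an unadjusted p below 0.05 those lists had 0 of 5, 1 of 7, 1 of 2 and 1 of 1 tested genes, and DESeq2 called 1 stellate marker, Acta2. Slc4a1, the anion exchanger of red cells and 1 of the erythroid markers, had no count in 3 libraries and 1 count in CCL4 replicate 2. It does not stand for its list, whose sum was higher in both HACY libraries. The part of such cells in the results below was not tested, and in bulk RNA fewer cells of a type and less RNA per cell cannot be told apart.

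Few of the carriers differed between the groups. All 42 members passed the expression filter, 1 of them (2.38%) rose in HACY and 3 (7.14%) fell, against 8.19% higher and 3.54% lower among all genes tested. In both directions together 4 members (9.52%) were called, against 11.7% of all genes. The member that rose was Slc25a24, a calcium-regulated carrier of ATP-Mg and phosphate. Those that fell were its relative Slc25a25, the coenzyme A carrier Slc25a42 and the branched-chain amino acid carrier Slc25a44. The median log2 fold change of the members was -0.05, and that of all genes tested was -0.01. Groups did not overlap for 28 members (66.7%), with 12 higher and 16 lower in HACY, against 60.8% of all genes. At an unadjusted p below 0.05, 3 members were higher and 8 lower, against 2223 higher and 1825 lower of all 13428 genes tested. Those counts over all genes are the background for every unadjusted count of a list given here. The 11.7% called is the background for every count of edgeR calls in a list. Slc25a21, which became a member through the CCL4 libraries alone, is counted among those 8 and the 16. Slc25a34, which met the minimum in both CCL4 libraries but not in HACY replicate 1, is also among the 16. By substrate the median log2 fold change was -0.16 for the 7 nucleotide carriers, -0.22 for the 9 cofactor carriers, 0.07 for the 7 amino acid carriers, 0.02 for the 5 phosphate and dicarboxylate carriers, -0.31 for the 3 uncoupling relatives and -0.17 for the 2 iron carriers. Both shares, called and not overlapping, lie near those of the whole table, and most of the family is described here by levels rather than by changes.

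**Figure D1:**
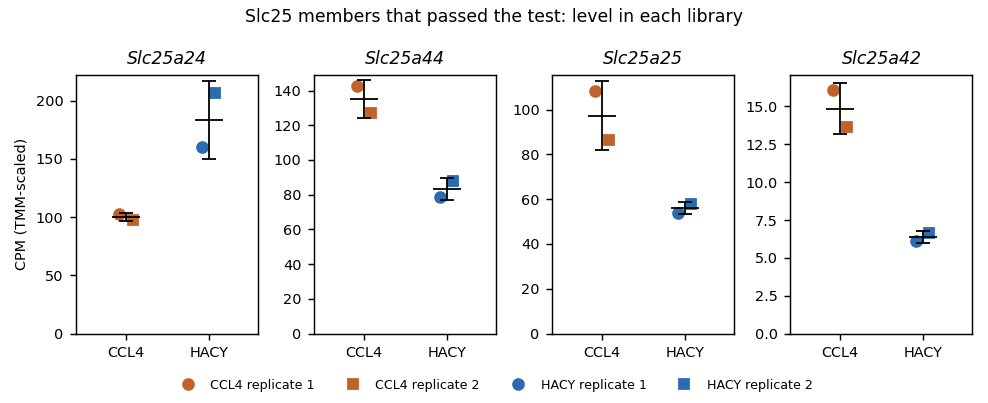
Level of the 4 called members in each library, in CPM on linear axes from 0. Points are libraries, and bars are the mean and SD of the 2 libraries of a group. Slc25a24 was at 160 and 207 CPM in HACY and at 102 and 97.9 CPM in CCL4, and the other 3 were lower in both HACY libraries than in either CCL4 library.

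Nucleotide carriers held both the rise and 1 of the falls. Slc25a24 (chromosome 3, 109123149 to 109168457, GRCm38, plus strand) had 160 and 207 CPM in HACY and 102 and 97.9 CPM in CCL4. Both HACY libraries were above both CCL4 libraries, and the HACY libraries differed more from each other than the CCL4 libraries did. The rise was 1.83-fold (log2 0.87, SE 0.15, edgeR adjusted p = 0.0145). Without HACY replicate 2 the log2 value was 0.68 and no longer passed (adjusted p = 0.0899). Slc25a25 (chromosome 2, 32414487 to 32451445, minus strand), a calcium-regulated relative with the same exchange, had 54.1 and 58.1 CPM in HACY and 108 and 86.4 CPM in CCL4. It was 1.74-fold lower in HACY (log2 -0.80, SE 0.15, edgeR adjusted p = 0.0200). It did not pass when either HACY replicate was left out (adjusted p = 0.110 without replicate 1 and 0.0638 without replicate 2). The annotated Slc25a25 overlaps Naif1 on the other strand by 989 bases, and no strand setting of the counting is at hand, so its reads could in part be those of Naif1. The same doubt holds for other members: 21 of the 42 overlap another annotated gene, 15 of them on the other strand, and 8 overlap a protein-coding gene, among them Slc25a11, Slc25a21, Slc25a23, Slc25a26, Slc25a35, Slc25a46 and Slc25a53. Slc25a23, another calcium-regulated member, had 14.1 and 17.4 CPM in HACY and 16 and 19.1 CPM in CCL4, and its groups overlapped.

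The promoters of called members are shown because they are the sequence nearest to these changes. RefSeq windows (GRCm38.p6) were at hand for Slc25a24, Slc25a25 and Slc25a42. The 250 bases before each annotated start are printed 5′ to 3′ on the strand of the gene. Capitals mark every match, on either strand, to the cAMP response element TGACGTCA, the GC box GGGCGG or the CCAAT box CCAAT. Slc25a25 has 3 annotated starts, and counts per gene do not tell which was used.
Slc25a24, chr3:109122899-109123148, plus strand: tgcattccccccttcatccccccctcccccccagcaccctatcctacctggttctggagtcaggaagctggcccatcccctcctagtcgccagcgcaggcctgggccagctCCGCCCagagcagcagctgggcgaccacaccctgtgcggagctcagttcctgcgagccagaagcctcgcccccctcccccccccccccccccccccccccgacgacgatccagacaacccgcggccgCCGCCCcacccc
Slc25a25, upstream start, chr2:32451471-32451720, minus strand: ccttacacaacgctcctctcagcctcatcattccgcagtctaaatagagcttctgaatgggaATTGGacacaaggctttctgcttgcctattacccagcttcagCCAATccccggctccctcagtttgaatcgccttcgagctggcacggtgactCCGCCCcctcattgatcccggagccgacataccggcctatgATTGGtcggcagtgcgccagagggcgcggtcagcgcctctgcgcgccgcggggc
Slc25a25, middle start, chr2:32431152-32431401, minus strand: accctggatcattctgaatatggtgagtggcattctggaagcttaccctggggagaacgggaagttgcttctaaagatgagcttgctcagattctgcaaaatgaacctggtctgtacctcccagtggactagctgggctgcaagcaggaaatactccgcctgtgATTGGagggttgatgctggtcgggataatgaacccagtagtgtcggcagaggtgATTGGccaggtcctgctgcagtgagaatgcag
Slc25a25, downstream start, chr2:32424067-32424316, minus strand: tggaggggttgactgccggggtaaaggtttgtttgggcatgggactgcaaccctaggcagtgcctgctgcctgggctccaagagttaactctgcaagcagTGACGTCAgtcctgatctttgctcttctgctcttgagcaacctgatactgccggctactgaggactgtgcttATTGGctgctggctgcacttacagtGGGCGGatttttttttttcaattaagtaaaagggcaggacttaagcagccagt
Slc25a42, chr8:70212282-70212531, minus strand: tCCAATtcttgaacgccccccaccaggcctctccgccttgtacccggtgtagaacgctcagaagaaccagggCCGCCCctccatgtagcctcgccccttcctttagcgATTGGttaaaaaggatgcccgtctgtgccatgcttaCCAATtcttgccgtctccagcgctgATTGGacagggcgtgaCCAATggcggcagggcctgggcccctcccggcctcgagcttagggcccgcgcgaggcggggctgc

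The windows of the called members differ from one another. That of Slc25a24 is the richest in G and C, at 72.8%, with 2 GC boxes and no CCAAT box in its 250 bases. That of Slc25a42 has 5 CCAAT boxes, and 18 CpG dinucleotides against 14 in Slc25a24. The upstream start of Slc25a25 lies in a window with 19 CpG, and the middle and downstream starts in windows with 4 each. The downstream window alone among the 5 holds the full cAMP response element, which begins 150 bases before the start. Over windows of 300 bases (250 before and 50 after the start), that element was in 2 of 43 windows of members, those of Slc25a25 and Slc25a36, and in 1.79% of all 32851 windows. The match is a description of the letters and shows no binding.

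The remaining nucleotide carriers were not called. Slc25a5, the adenine nucleotide translocase of most dividing cells, was the most abundant carrier per transcript length, at 178 and 201 FPKM in HACY and 150 and 157 FPKM in CCL4. Both HACY libraries were above both CCL4 libraries, with a log2 fold change of 0.42 (SE 0.13, edgeR adjusted p = 0.0813). Its counts are uncertain, since the annotation holds a pseudogene copy, Slc25a5-ps, on another chromosome. Slc25a4, the translocase of heart and muscle, had 64.9 and 63.7 CPM in HACY, between the 48.1 and 75.9 CPM of the CCL4 libraries. Slc25a33 and Slc25a36, which carry pyrimidine nucleotides, had 10.4 and 11.9 against 12.8 and 14.3 CPM and 21.5 and 20.3 against 29.3 and 26.3 CPM, with log2 fold changes of -0.29 and -0.41 (adjusted p = 0.415 and 0.160 by edgeR).

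**Figure D2:**
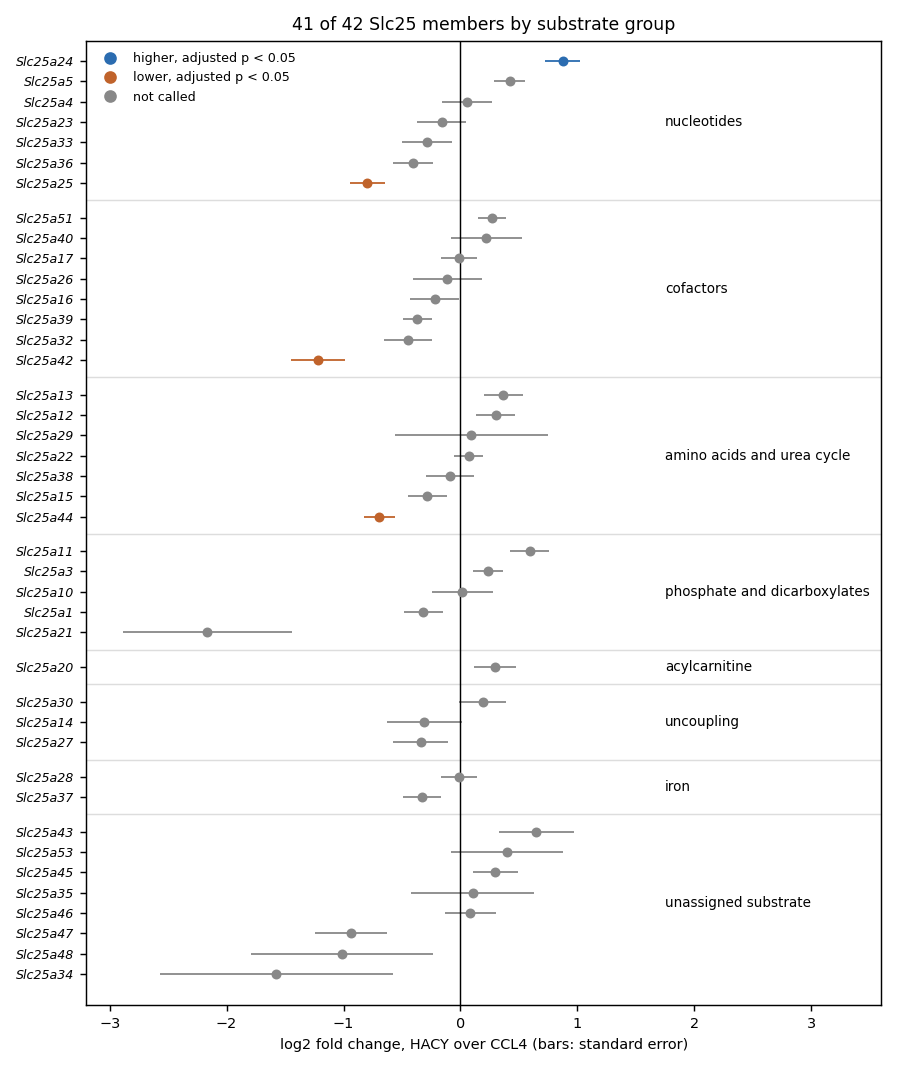
Log2 fold change of HACY over CCL4 for 41 of the 42 members, grouped by substrate, with bars for the standard error. Blue marks the member that rose, orange the 3 that fell and grey the rest. The called members lie in the nucleotide, cofactor and amino acid groups, and members with wide bars have few counts.

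Among 9 carriers of cofactors, 1 fell and none rose. Slc25a42 (chromosome 8, 70184340 to 70212305, minus strand), which brings coenzyme A into the matrix in exchange for adenine nucleotides, had 6.12 and 6.64 CPM in HACY and 16.1 and 13.7 CPM in CCL4. Of the 4 called members it had the largest change, 2.33-fold lower in HACY (log2 -1.22, SE 0.23, edgeR adjusted p = 0.0199). Leaving out HACY replicate 1 or HACY replicate 2 ended the call, with an adjusted p = 0.120 and 0.0772. Slc25a39, which imports glutathione, was the most abundant of the group per transcript length, at 62.0 and 67.1 FPKM in HACY and 87.0 and 89.0 FPKM in CCL4. In CPM it had 196 and 219 in HACY and 255 and 280 in CCL4. Its groups did not overlap. The difference was -0.37 in log2 (SE 0.12, edgeR adjusted p = 0.0990). By library size alone the value was -0.54 (adjusted p = 0.0263). Its paralog Slc25a40 had 9.89 and 13.2 CPM against 12.3 and 7.49 CPM, with groups that overlapped.

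Of the 9 cofactor carriers 2 had a log2 fold change above 0 and 7 below. Slc25a32, for folate or flavin, had 30.5 and 27.0 CPM in HACY and 45.8 and 32.4 CPM in CCL4. It did not pass edgeR's test with all libraries (adjusted p = 0.195), and without CCL4 replicate 2 the adjusted p was 0.0292 (log2 -0.67), with the spread taken from the HACY libraries alone. Slc25a51, for NAD+, had 89.9 and 88.8 CPM in HACY and 74.3 and 73.7 CPM in CCL4 (log2 0.27, adjusted p = 0.180). Slc25a17, of peroxisomes, had 44.9 and 55.8 CPM around the 50.9 CPM of both CCL4 libraries, and Slc25a16 and Slc25a26, the S-adenosylmethionine carrier, also overlapped between groups.

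Of 7 carriers of amino acids and urea cycle intermediates, 1 fell and none rose. Slc25a44 (chromosome 3, 88410498 to 88425139, minus strand), which carries branched-chain amino acids into the matrix, had 78.9 and 87.7 CPM in HACY and 143 and 127 CPM in CCL4. It was 1.62-fold lower in HACY (log2 -0.70, SE 0.13, edgeR adjusted p = 0.0192), which passed only with both HACY replicates (adjusted p = 0.161 without replicate 1 and 0.0699 without replicate 2). It was also the most abundant carrier of this group per transcript length, at 17.4 and 19.1 FPKM in HACY and 33.7 and 30.4 FPKM in CCL4. The ornithine carrier Slc25a15, which feeds the mitochondrial step of the urea cycle, had 22.3 and 23.0 CPM in HACY and 26.6 and 28.6 CPM in CCL4 (log2 -0.28, adjusted p = 0.295). Slc25a13 or citrin, the aspartate-glutamate carrier of liver, had 37.4 and 45.3 against 31.5 and 32.6 CPM (log2 0.37, adjusted p = 0.185), and its relative Slc25a12 had 35.7 and 37.0 against 26.8 and 32.1 CPM. The glutamate carrier Slc25a22 had 65.7 to 71.2 CPM in the 4 libraries, and the glycine carrier Slc25a38 13.8 to 17.0 CPM. Slc25a29, for basic amino acids, rested on 10 to 27 counts.

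Some enzymes beside these carriers were called. Of 8 urea cycle and ornithine enzymes, 3 rose and 1 fell by edgeR. Otc, which joins carbamoyl phosphate to the ornithine that Slc25a15 brings in, had 24.7 and 31.3 CPM in HACY and 5.76 and 4.63 CPM in CCL4 (log2 2.43, SE 0.23, adjusted p = 0.00205). Cps1, which makes the carbamoyl phosphate, had 31.4 and 35.1 against 7.03 and 11.0 CPM (log2 1.88, SE 0.25). Ass1, which uses the aspartate that citrin exports, rose by 0.94 (SE 0.19). It did not pass when HACY replicate 2 was left out (adjusted p = 0.0897), when CCL4 replicate 1 was (0.0695), or in FPKM (0.0641). Nags, which makes the activator of Cps1, had a log2 fold change of -1.17 (SE 0.21), and did not pass when HACY replicate 1 was left out (adjusted p = 0.101). The difference between enzymes and carriers was not tested.

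Carriers of phosphate and dicarboxylates held no call by edgeR, with 2 of 5 at an unadjusted p below 0.05. These were Slc25a11, which DESeq2 called, and Slc25a21, whose direction was set by the choice of members. Slc25a3, which supplies phosphate to ATP synthase, was the most abundant per transcript length, at 124 and 131 FPKM in HACY and 111 and 123 FPKM in CCL4. In CPM it had 222 and 242 in HACY and 184 and 210 in CCL4 (log2 0.23, SE 0.13, edgeR adjusted p = 0.264). Slc25a11, which exchanges 2-oxoglutarate for malate in the malate-aspartate shuttle, had 46.4 and 45.6 CPM in HACY and 27.3 and 33.7 CPM in CCL4. Its groups did not overlap, with a log2 fold change of 0.59 (SE 0.17, edgeR adjusted p = 0.0617), and it was called without a filter (0.0473) and by DESeq2 (0.0393). It was also called without CCL4 replicate 2 (0.75, adjusted p = 0.0184), a fit whose spread comes only from the 2 HACY libraries. The annotated gene overlaps Rnf167 on the other strand by 245 bases. The citrate carrier Slc25a1, which supplies fatty acid synthesis, had 87.2 and 119 CPM against 123 and 133 CPM (log2 -0.32, adjusted p = 0.250). The dicarboxylate carrier Slc25a10 had 27.0 and 31.6 CPM in HACY, inside the 21.5 and 36.4 CPM of the CCL4 libraries. Slc25a21, for oxodicarboxylates, is known here only from the counts given at the start, and it reached the minimum through the CCL4 libraries alone.

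The small groups showed no called member by edgeR. Slc25a20, the carnitine-acylcarnitine carrier of fatty acid oxidation, had 22.0 and 24.3 CPM in HACY and 17.7 and 20 CPM in CCL4, with no overlap (log2 0.29, SE 0.18, adjusted p = 0.321). The iron importer Slc25a37, mitoferrin of red cell precursors, had 142 and 173 CPM in HACY and 220 and 175 CPM in CCL4 (log2 -0.33, SE 0.16, adjusted p = 0.220). Both CCL4 libraries were above both HACY libraries, but CCL4 replicate 2 stood close to HACY replicate 2. The part of blood cells in these values was not tested. Slc25a28, mitoferrin of other tissues, had 34.4 to 38.1 CPM in the 4 libraries. Of 3 members related to uncoupling proteins, Slc25a30 was the most abundant per transcript length (5.92 to 8.17 FPKM), with 51.0 and 69.0 CPM in HACY and 45.7 and 59.6 CPM in CCL4. Slc25a14 had 3.06 and 3.75 against 4.20 and 4.24 CPM, and Slc25a27 8.30 and 9.25 against 12.2 and 10.1 CPM. None of the members of these 3 groups had an unadjusted p below 0.05 or was called by DESeq2 or limma-voom.

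Among 8 members with no substrate assigned here, none was called by edgeR or DESeq2 and 1 had an unadjusted p below 0.05. That was Slc25a47, a carrier found mainly in liver, with 3.71 and 5.90 CPM in HACY and 9.40 and 9.02 CPM in CCL4 (log2 -0.94, SE 0.31, edgeR adjusted p = 0.0922). It was called by library size alone (-1.11, adjusted p = 0.0450) and on filtered log2(FPKM + 1) (-0.82, adjusted p = 0.0474), but not on filtered log2(FPKM + 0.1) (0.0507) or on unfiltered FPKM (0.0966). Slc25a46, an outer membrane protein of mitochondrial fission, was the most abundant of this group per transcript length (17.2 to 25.6 FPKM), with 71.9 and 87.6 CPM in HACY and 91.6 and 58.8 CPM in CCL4. Its CCL4 libraries stood on both sides of the HACY libraries. Slc25a45 had 21.1 to 30.3 CPM and Slc25a43 3.19 to 6.5 CPM, while Slc25a34, Slc25a35, Slc25a48 and Slc25a53 had at most 34 counts in any library.

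**Figure D3:**
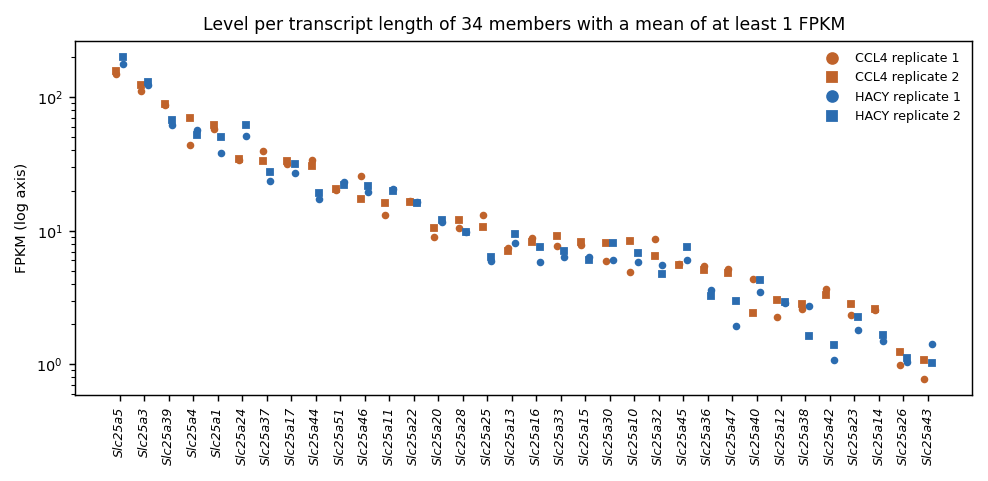
FPKM of 34 members with a mean of at least 1 FPKM, in order of the mean over the 4 libraries, on a log axis. Points are libraries. Slc25a5 and Slc25a3 lie above 100 FPKM in every library, and neighbours further along mostly overlap.

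Levels within the family spanned more than 3 orders of magnitude per transcript length. FPKM are used to compare genes, and the deposited values need not follow the counts exactly. By the mean over the 4 libraries, 2 members were above 100 FPKM (Slc25a5 at 171 and Slc25a3 at 122), 13 lay between 10 and 100, 20 between 1 and 10, and 7 below 1. Slc25a5 and Slc25a3 did not overlap with each other or with Slc25a39, the next in order. From Slc25a39 (76.3 FPKM) through Slc25a4, Slc25a1, Slc25a24 and Slc25a37 down to Slc25a22 (16.4 FPKM), each member overlapped with its neighbour. The 5 most abundant members took 60.3% ± 0.174 of the summed FPKM of the family in HACY and 58.5% ± 2.21 (SD, n = 2) in CCL4. The family as a whole took 0.196% ± 0.0139 of all counts in the HACY libraries and 0.224% ± 0.00214 in those of CCL4 (SD, n = 2), and the exact permutation test (two-sided) gave p = 0.33, its lowest possible value for 2 against 2 libraries. A share of counts is scaled by library size alone. With that scaling the median log2 fold change was -0.22 for the members and -0.18 for all genes tested. As a share of the summed FPKM the values were 0.230% ± 0.0137 and 0.237% ± 0.00115, and the groups overlapped.

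**Figure D4:**
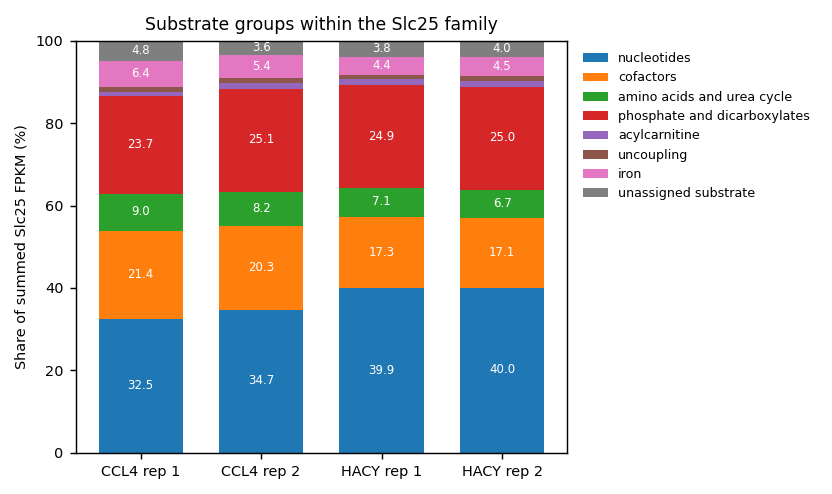
Share of the summed FPKM of the 42 members taken by each substrate group, in percent, 1 bar per library. Nucleotide carriers take 39.9% and 40.0% in HACY and 32.5% and 34.7% in CCL4, and cofactor carriers take less in HACY.

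By substrate, the make-up of the family in FPKM did not overlap between the groups for most of the larger classes. Nucleotide carriers took 40.0% ± 0.0577 of the Slc25 FPKM in HACY and 33.6% ± 1.58 in CCL4. Within that class only Slc25a5 and Slc25a24 had a higher mean FPKM in HACY. Slc25a5 had means of 189 in HACY and 153 in CCL4, and Slc25a24 of 56.3 and 34.2. The other nucleotide carriers had lower means in HACY, and the median log2 fold change of the class was -0.16. Cofactor carriers took 17.2% ± 0.149 and 20.8% ± 0.733, amino acid carriers 6.94% ± 0.283 and 8.61% ± 0.513, and the iron carriers 4.44% ± 0.0724 and 5.90% ± 0.672 (SD, n = 2). In each of these 4 groups the libraries of HACY and CCL4 did not overlap, and the exact permutation p was 0.33 for each, again the lowest possible. Phosphate and dicarboxylate carriers took 24.9% ± 0.0949 and 24.4% ± 0.993, with overlap. As a share of the Slc25 counts they took 19.62% and 19.74% in HACY and 16.93% and 19.58% in CCL4, without overlap. The uncoupling class and that with no substrate assigned overlapped in FPKM and in counts. The acylcarnitine carrier took 1.49% in HACY and 1.20% in CCL4, so not every other share was lower in HACY. Shares sum to a fixed total and are not independent of each other. The summed FPKM of the family was 761 and 834 in HACY and 789 and 832 in CCL4, with overlap.

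Ratios of related carriers within a library do not depend on how libraries are scaled. Of 10 pairs listed, 8 had both members expressed. The ratio of Slc25a25 to Slc25a24 was 0.118 and 0.103 in HACY and 0.388 and 0.311 in CCL4, a difference of -1.66 on the log2 scale. That pair had the largest shift of the 8, and its members are 2 of the called ones. The ratio of Slc25a24 to Slc25a23 was 27.9 and 27.4 in HACY and 14.5 and 12.1 in CCL4. The ratio of Slc25a39 to Slc25a40 was 17.9 and 15.6 against 20 and 37.0, and that of Slc25a10 to Slc25a11 was 0.283 and 0.341 against 0.375 and 0.523. For these 4 pairs the groups did not overlap, with p = 0.33 each by exact permutation, so none of the 8 comparisons could pass a threshold of 0.05. The ratio of Slc25a5 to Slc25a4 was 3.11 and 3.86 in HACY and 3.40 and 2.26 in CCL4, that of Slc25a13 to Slc25a12 was 2.82 and 3.26 against 3.28 and 2.34, and that of Slc25a28 to Slc25a37 was 0.419 and 0.357 against 0.263 and 0.362. These overlapped between groups, as did Slc25a33 to Slc25a36.

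**Figure D5:**
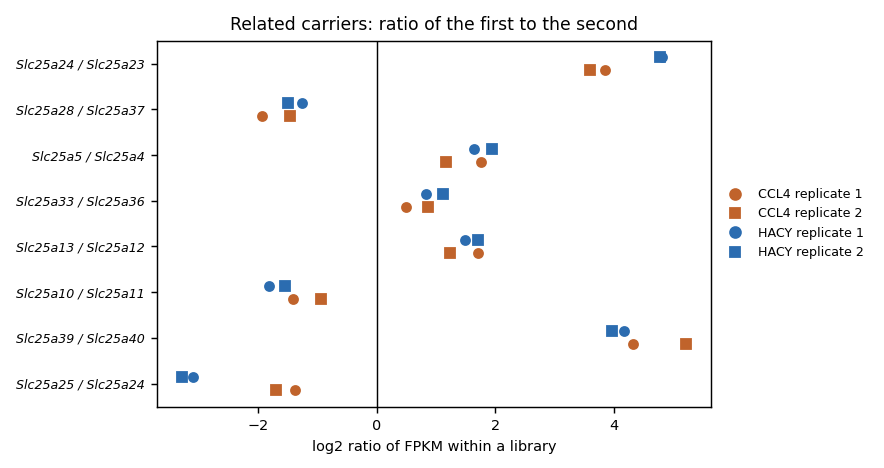
Log2 ratio of the FPKM of related carriers within each library, for 8 pairs. Points are libraries. The pair Slc25a25 and Slc25a24 is shifted to the left in both HACY libraries, by 1.66 on average, and 4 pairs show overlap between groups.

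Other genes of mitochondrial transport were mostly not called, which also holds for the whole table, where edgeR called 11.7% of 13428 genes. Among carriers of the family with other names, Ucp2, an uncoupling protein abundant in macrophages, had 128 and 99.4 CPM in HACY and 37.9 and 56.8 CPM in CCL4 (log2 1.26, SE 0.22, edgeR adjusted p = 0.0142). It rose beside the macrophage markers, and their part in it was not tested. Mtch1 and Mtch2 were not called, and Ucp1 and Ucp3 had at most 1 count in any library. Of 19 other membrane transporters (pyruvate carriers, sideroflexins, porins, the calcium uniporter and others) none was called by edgeR, DESeq2 or limma-voom, and 3 had an unadjusted p below 0.05. The machinery that imports carriers had 0 of 13 called by edgeR and DESeq2, with 1 at an unadjusted p below 0.05. ATP synthase subunits, which use what Slc25a3 and the adenine nucleotide translocases carry, had 0 of 16 called by edgeR, 1 at an unadjusted p below 0.05 and 1 lower by DESeq2 (Atp5d). Their median log2 fold change was -0.14.

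Enzymes next to the other carriers were also largely uncalled, again beside 11.7% called among all genes tested. Malate-aspartate and citrate enzymes had 0 of 9 called by edgeR (3 at an unadjusted p below 0.05, and Glud1 higher by DESeq2). Carnitine shuttle enzymes had 0 of 5 by edgeR and DESeq2 (1 unadjusted), and mitochondrial iron, haem and iron-sulphur genes 0 of 12 by both (1 unadjusted). Of 9 regulators of mitochondrial biogenesis 1 fell. This was Ppargc1a, the coactivator PGC-1 alpha, with 1.69 and 2.16 CPM in HACY and 14 and 9.71 CPM in CCL4 (log2 -2.62, SE 0.33, edgeR adjusted p = 0.00446). The median of that list was -0.26, and the medians of the Slc25 members and of the 19 transporters were -0.05 and 0.18.

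Some features that the choice by name did not use were shared among members. The 42 members lie on 19 chromosomes. Within 100000 bases of each other lie 4 pairs of the 47 genes, with gaps of 162 to 18448 bases. In 2 of these pairs both genes were members: Slc25a29 and Slc25a47 face away from each other on chromosome 12, and Slc25a43 and Slc25a5 follow each other on chromosome X with log2 fold changes of 0.65 and 0.42, neither called. RefSeq promoter windows were at hand for 33 members (43 windows). Their median was 15 CpG in 300 bases and a G and C content of 59.0%, against 7 CpG and 52.7% for all windows. The members had passed a count minimum, and the full set of windows was taken without one. Windows of expressed genes alone were not compared, so these differences cannot be credited to the family. The GC box GGGCGG was in 37 of 43 (86.05%) against 35.7% of all windows, CCAAT in 22 (51.2%) against 37.4%, CACGTG in 7 (16.3%) against 7.15%, TGACG in 13 (30.2%) against 20.8% and the ETS core CCGGAAG in 6 (13.95%) against 8.86%. TATAAA was in 1, that of Slc25a21, against 13.6%, and neither the ERR element TCAAGGTCA (0.423% of all windows) nor the NRF1 core GCATGCGC (2.71%) matched. Both strands were searched, windows of 1 gene can overlap, and matches to TGACGTCA also count as TGACG.

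Replicates of the members differed about as much as those of other genes. On the log2(CPM + 1) scale the median difference between the HACY replicates was 0.17 for members and 0.15 for all genes tested, and between the CCL4 replicates 0.19 and 0.22. With 1 CPM added to each value, 2 members in HACY (4.76%, against 4.42% of all genes tested) were more than 1.5-fold apart. In CCL4 5 were (11.9%, against 12.8%). They were Slc25a29 and Slc25a34 in HACY and Slc25a10, Slc25a4, Slc25a40, Slc25a46 and Slc25a48 in CCL4. The added 1 CPM shrinks differences of members with few counts, so others are left out. Examples in HACY are Slc25a48, with 0.765 and 0.284 CPM, and Slc25a47, with 3.71 and 5.90 CPM.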

How the data were processed

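Per the labels' protocols, stranded paired-end mRNA libraries were sequenced. Per the submitters' processing notes, Trimmomatic, HISAT2, Cufflinks, HTSeq and DESeq were used with mm10. Their versions, the annotation and the strand setting were not given in the sources used here. The authors deposited, for each of 4 libraries, raw counts and FPKM per gene symbol, per the file headers. All rows (21878 symbols, 0 columns left out) were fitted together with edgeR 4.0.16 in R 4.3.3 (filterByExpr with a minimum count of 10 and a minimum total of 15, TMM scaling, quasi-likelihood test, no covariate), and p-values were adjusted over the 13428 genes tested by the Benjamini-Hochberg method. The threshold was an adjusted p of 0.05. Standard errors are approximate (the log2 fold change divided by the root of F). CPM are counts scaled to the TMM-scaled library size. FPKM, used for levels, were tested only as an alternative with limma 3.58.1 on log2(FPKM + 1) and on log2(FPKM + 0.1). DESeq2 1.42.0 was another alternative. The procedure was tested on simulated data.

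Every member was to be described and every called member named with its values; other genes came from fixed lists. The values of 1 member and 1 marker are not reported here, though both stay in the counts and sums. The members and lists were chosen with earlier results of these data known. Libraries of a group differed by more than sampling noise (chi-square over degrees of freedom 19.8 in HACY and 35.6 in CCL4), so none is a copy of another; whether they are separate animals is not shown by this. Fits without 1 library leave its group with 1, which is assumed to vary like the 2 libraries of the other group. Shares and ratios have no gene-wise model, and the exact permutation test of 2 against 2 libraries cannot go below p = 0.33. Positions come from the GENCODE annotation of GRCm38, the assembly of mm10, where 20639 symbols matched, and promoter windows from RefSeq.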

Additional observations from a re-analysis of the deposited data

How the results depend on the processing

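The 4 members called with all libraries were called, in the same direction, with RLE or upper-quartile scaling, limma-voom, DESeq2, no filter, a stricter filter and filtered FPKM. No called value changed sign under any alternative run. Values that were not called did: 39 of the 652 alternative values changed sign, in 13 of the 42 members. With library size only, Slc25a22 went from 0.07 to -0.10 and Slc25a10 from 0.02 to -0.15. Their main values are the medians given for the amino acid carriers and for the phosphate and dicarboxylate carriers. More members passed in some settings: 5 lower with library size only, 2 higher with DESeq2 and with no filter, and 4 lower on filtered log2(FPKM + 1). Unfiltered log2(FPKM + 1) called 0 higher and 0 lower (adjusted p of 0.0569 to 0.0745 for the 4 members). Leaving out 1 replicate gave 0 to 2 higher and 0 to 4 lower: without HACY replicate 1 only Slc25a24 was called, and without HACY replicate 2 none was. Over all genes the counts were 1349 higher and 730 lower with DESeq2, 640 and 623 on filtered FPKM (pseudocount 1), 646 and 642 (pseudocount 0.1), 180 and 62 on unfiltered FPKM, 530 and 99 when HACY replicate 1 was left out, 672 and 108 when HACY replicate 2 was, and 1840 and 1207 when CCL4 replicate 2 was. The share of the family in all counts differed by -0.0277 percentage points (HACY minus CCL4), and its share of summed FPKM by -0.00667. The replicate block left the same 4 members called, 1 higher and 3 lower, with 893 higher and 331 lower over all genes. The numbers do not pair the samples by the labels, and same-numbered libraries deviated with r = -0.128. The crossed pairing, chosen after seeing the data, called 3 members higher and 4 lower (1843 and 1245 over all genes). The cause of these changes was not tested. With 2 libraries a group, members with few counts have wide errors, and a difference that was not called may still exist.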
